A study of Homo sapiens with 8 samples.

Results

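The genes described here lie near each other on the long arm of human chromosome 8, in the band 8q24, from ZHX2 to GLI4 in the order of the deposited table. They were chosen by name, from a list of 38 symbols that were picked for their position and because RNA of this region differed between the hairpin labels. Of these symbols 37 were found among the 19583 genes of the table, and EIF2C2 was not found under that name. A total of 34 members averaged at least 1 normalised read across the 8 libraries and were tested, among 12645 genes. The remaining 3, WISP1, BAI1 and PSCA, were below that level. Because the label difference was used in the choice, it is given as a description with no test. The response to oxygen was not used, and was tested. Its dependence on the label was tested too, but is built from the label differences used in the choice. Nothing about the region is therefore read from that second test.

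The band 8q24 holds MYC, the transcription factor gene that drives cell growth, and is among the regions most often gained in breast cancer. MYC stands in a stretch with few other protein-coding genes and shares it with PVT1, a long noncoding RNA. The surrounding genes have unrelated roles, among them protein degradation, chromatin binding, cell adhesion and the LY6 family of small surface proteins held by a lipid anchor. Low oxygen acts on RNA levels mainly through the hypoxia-inducible factors, and NDRG1, a widely used marker of their activity, lies within the same region.

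RNA with a poly(A) tail was sequenced from MDA-MB-231, a human breast cancer line without estrogen and progesterone receptors. By the labels the cells carried a short hairpin RNA directed at CHD4, the ATPase of the NuRD chromatin remodelling complex (shCHD4), or a scrambled control hairpin (shSC), and stood under 1% or 20% O2 for 24 hours. There were 4 groups of 2 libraries, namely shCHD4 at 1% O2, shCHD4 at 20% O2, shSC at 1% O2 and shSC at 20% O2. All groups share the line and carry a hairpin, and the labels give neither the number of hairpins and clones nor the source of the 2 libraries, so p-values measure a spread that may be technical.

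Libraries held 24947627 to 31903585 reads assigned to genes. The normalised read count used throughout is the deposited value, a library's reads scaled to its size and not to gene length, so levels are compared between libraries and not between genes. CHD4, the target of the hairpin, had normalised read counts of 299 and 287 at 1% O2 and 293 and 305 at 20% O2 in shCHD4 cells, against 279.7 and 278 at 1% O2 and 299 and 298 at 20% O2 in shSC cells. By these values CHD4 RNA was not lower under the shCHD4 label (log2 difference 0.071 at 1% O2, adjusted p = 0.129 by limma, and 0.0018 at 20% O2, adjusted p = 0.968), and every label difference below is one between libraries labelled shCHD4 and shSC. CA9, a target of the hypoxia-inducible factors, marked the O2 level, with 3.54 and 4.49 at 1% O2 and 0.15 and 0.0345 at 20% O2 in shCHD4 cells, against 27 and 29 at 1% O2 and 0.207 and 0.483 at 20% O2 in shSC cells. The mesenchymal markers of this line were high, with VIM at 3471 to 6856, while of the 6 genes listed as low or absent ESR1, PGR, FOXA1 and CDH1 had at most 13 reads in a library. The other 2 were present, GATA3 at 8.38 to 14.6 and EPCAM at 4.17 to 7.56. Of the 6 measured markers of other cell types, summed values were 30.5 to 35.6 in shCHD4 and 22.6 to 25.8 in shSC libraries, most of it COL1A1, with PECAM1 at 51 to 79 reads, PTPRC at 3 to 18 and COL1A2, PDGFRA and VWF at 0 to 5 reads. The part of those cells in the differences was not tested.

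RNA of the 8q24 members was lower in shCHD4 than in shSC cells at both O2 levels. The log2 difference, shCHD4 minus shSC on the scale of log2(value + 0.5), was below 0 for 33 of 34 at 1% O2 and for 33 of 34 at 20% O2, with medians of -0.89 and -0.79 beside -0.0067 and -0.0091 over all tested genes. A 2-fold or larger deficit was seen for 15 members at 1% O2 and 14 at 20% O2, where 8.56% and 8.07% of all genes had one. Both shCHD4 libraries were below both shSC libraries for 32 members at 1% O2 and 33 at 20% O2, while 44.9% and 43.8% of all tested genes were separated in that direction. JRK was the member above 0 at both levels, and the groups of 1 member, DENND3, overlapped at 1% O2. In bulk RNA, fewer cells with a transcript and less of it per cell cannot be told apart. By a GENCODE annotation, exons of 19 of the 37 members overlap those of another gene on either strand, among them KIAA0196 with NSMCE2, TATDN1 with NDUFB9 and JRK with PSCA. Whether reads were counted by strand is not stated, so reads of such pairs may not be told apart.

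**Figure D1:**
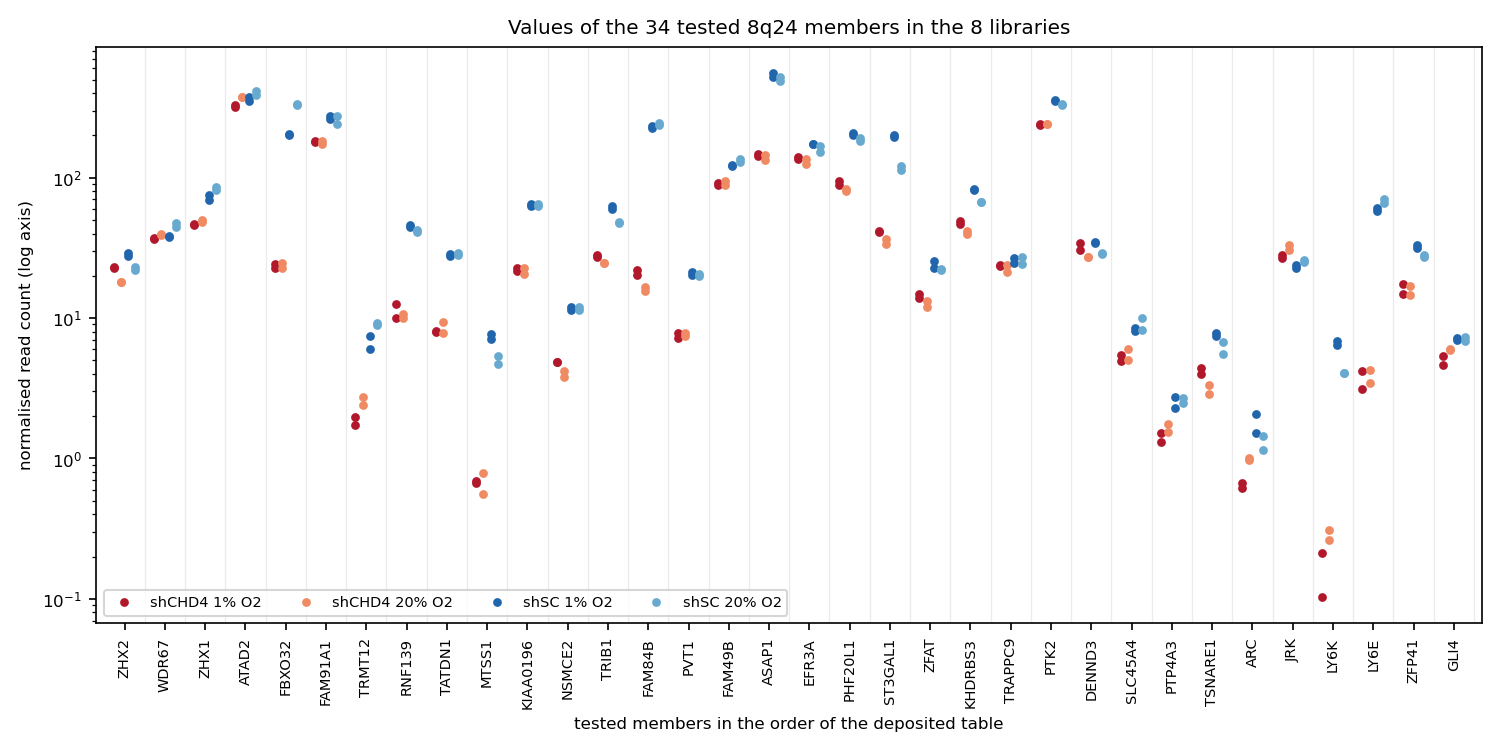
Normalised read count (vertical, log axis) of the 34 tested members in table order, with 1 point per library in 4 groups. The red and orange shCHD4 points lie below the blue shSC points for nearly every member, and the points of 1% and 20% O2 under the same label lie close together for most.

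Of the 5 members with the lowest ratios, FBXO32, MTSS1 and FAM84B lay in the first part of the region. The others, LY6K and LY6E, were consecutive tested members near its end. LY6E, an interferon-inducible surface protein of the LY6 family, had normalised read counts of 4.22 and 3.15 at 1% O2 and 3.44 and 4.24 at 20% O2 in shCHD4 cells, against 57.8 and 60.6 at 1% O2 and 70.3 and 65.9 at 20% O2 in shSC cells. The shCHD4 and shSC values stood far apart, and those of 1% and 20% O2 close together. The log2 difference was -3.85 at 1% O2 and -3.99 at 20% O2, a 15.1-fold deficit by the mean of both. FAM84B, a protein with an LRAT-like domain encoded next to MYC, had 22.1 and 20.4 at 1% O2 and 16.5 and 15.6 at 20% O2 in shCHD4 cells, against 226 and 232 at 1% O2 and 238 and 247 at 20% O2 in shSC cells. Every shSC library was above every shCHD4 library (log2 difference -3.40 at 1% O2 and -3.88 at 20% O2). FBXO32, the F-box protein atrogin-1 that selects targets for ubiquitination in wasting muscle, had 22.9 and 24.3 at 1% O2 and 24.8 and 22.9 at 20% O2 in shCHD4 cells, against 204 and 202 at 1% O2 and 334 and 327 at 20% O2 in shSC cells. The shCHD4 values were alike at both O2 levels, and the shSC values were lower at 1% O2 without reaching them (log2 difference between labels -3.08 at 1% O2 and -3.76 at 20% O2).

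LY6K, a LY6 family protein found in testis and tumours, had 0.103 and 0.212 at 1% O2 and 0.262 and 0.31 at 20% O2 in shCHD4 cells, against 6.43 and 6.89 at 1% O2 and 4.05 and 4.05 at 20% O2 in shSC cells. The shCHD4 values rested on 3 and 6 reads at 1% O2 and 7 and 9 at 20% O2, so the log2 differences of -3.45 at 1% O2 and -2.53 at 20% O2 are understated by the pseudocount of 0.5. MTSS1, which bends the plasma membrane through its I-BAR domain and binds actin, had 0.687 and 0.672 at 1% O2 and 0.561 and 0.793 at 20% O2 in shCHD4 cells, against 7.15 and 7.66 at 1% O2 and 4.72 and 5.35 at 20% O2 in shSC cells. The shCHD4 values, all under those of shSC, rested on 15 to 23 reads (log2 difference -2.74 at 1% O2 and -2.24 at 20% O2). These values lie near the pseudocount, so the differences of MTSS1 are understated too. PSCA, a further LY6 relative, was below the level for testing, with at most 3 reads in a library.

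At the other end were 4 members with the smallest deficits and JRK, the one that was higher. JRK, a DNA-binding protein derived from a transposase, had 28.1 and 26.8 at 1% O2 and 30.7 and 33.1 at 20% O2 in shCHD4 cells, against 22.8 and 23.7 at 1% O2 and 25 and 25.8 at 20% O2 in shSC cells, which was higher in shCHD4 cells (0.23 at 1% O2 and 0.32 at 20% O2 on the log2 scale). DENND3, an exchange factor for the GTPase RAB12, had 34.4 and 30.6 at 1% O2 and 27.1 and 27.1 at 20% O2 in shCHD4 cells, against 34.2 and 34.9 at 1% O2 and 28.9 and 28.6 at 20% O2 in shSC cells, with log2 differences of -0.09 at 1% O2 and -0.085 at 20% O2. ATAD2, a bromodomain ATPase that assists MYC and E2F factors, had 321 and 327 at 1% O2 and 374 and 376 at 20% O2 in shCHD4 cells, against 349.6 and 374 at 1% O2 and 388 and 413 at 20% O2 in shSC cells. The label difference of ATAD2 was -0.16 at 1% O2 and -0.094 at 20% O2, the values of shCHD4 being lower in each comparison by less than the step between O2 levels under shCHD4. WDR67, a centrosomal protein with a TBC domain, had 37.3 and 36.8 at 1% O2 and 39.7 and 38.8 at 20% O2 in shCHD4 cells, against 38.3 and 37.6 at 1% O2 and 44.9 and 47.5 at 20% O2 in shSC cells (log2 difference -0.034 at 1% O2 and -0.23 at 20% O2). TRAPPC9, a subunit of a complex that tethers transport vesicles, had 23.5 and 23.7 at 1% O2 and 21.1 and 23.9 at 20% O2 in shCHD4 cells, against 24.8 and 26.6 at 1% O2 and 27.1 and 24.4 at 20% O2 in shSC cells (log2 difference -0.12 at 1% O2 and -0.19 at 20% O2). The nearest libraries of both labels nearly met at 1% O2 for WDR67 and at 20% O2 for TRAPPC9, and those of WDR67 stood further apart at 20% O2.

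All 6 genes of membrane shape, adhesion and the cytoskeleton were lower in shCHD4 cells, 2 of them 2-fold or more at each O2 level, with medians of -0.50 at 1% O2 and -0.50 at 20% O2. ASAP1, a GTPase-activating protein for ARF proteins at podosomes and focal adhesions, had 148 and 144 at 1% O2 and 133 and 146 at 20% O2 in shCHD4 cells, against 555 and 519 at 1% O2 and 486 and 523 at 20% O2 in shSC cells. The groups did not overlap between labels (log2 difference -1.88 at 1% O2 and -1.85 at 20% O2). PTK2, the focal adhesion kinase, averaged 239.8 ± 1.18 in shCHD4 and 353 ± 3.03 in shSC cells at 1% O2 (SD, n = 2 each), with log2 differences of -0.56 at 1% O2 and -0.47 at 20% O2. FAM49B, which binds RAC1 and restrains lamellipodia, differed by -0.44 at 1% O2 and -0.53 at 20% O2. EFR3A, which holds a phosphatidylinositol kinase at the plasma membrane, differed by -0.33 at 1% O2 and -0.31 at 20% O2. MTSS1 and DENND3, described above, were the lowest and the highest of this group.

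Of the 6 genes of protein degradation, stress and trafficking, 5 were 2-fold or more lower in shCHD4 cells at 1% O2 and 4 at 20% O2. RNF139, a ubiquitin ligase of the endoplasmic reticulum, averaged 11.3 ± 1.73 in shCHD4 and 45.3 ± 1.27 in shSC cells at 1% O2 (SD, n = 2 each; log2 difference -1.97 at 1% O2 and -1.96 at 20% O2). KIAA0196, the WASH complex subunit strumpellin that acts on endosomes, averaged 22.2 ± 0.875 in shCHD4 and 64.3 ± 1.5 in shSC cells at 1% O2 (SD, n = 2 each; log2 difference -1.51 at 1% O2 and -1.54 at 20% O2). NSMCE2, the SUMO ligase of the SMC5/6 complex of DNA repair, differed by -1.18 at 1% O2 and -1.44 at 20% O2. TRIB1, a pseudokinase that brings C/EBP factors to a ubiquitin ligase, differed by -1.13 at 1% O2 and -0.94 at 20% O2.

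Of the 8 genes of chromatin and transcription, 7 were lower in shCHD4 cells, with medians of -0.55 at 1% O2 and -0.54 at 20% O2, and 1, PHF20L1, was 2-fold or more lower at both O2 levels. PHF20L1, a Tudor domain reader of methylated lysine, averaged 91.8 ± 4.37 in shCHD4 and 204 ± 3.63 in shSC cells at 1% O2 (SD, n = 2 each; log2 difference -1.15 at 1% O2 and -1.20 at 20% O2). ZHX1 and ZHX2, related zinc finger and homeobox repressors, differed by -0.64 at 1% O2 and -0.76 at 20% O2 for ZHX1 and by -0.31 at 1% O2 and -0.32 at 20% O2 for ZHX2. The zinc finger genes ZFAT, ZFP41 and GLI4 differed by -0.71 at 1% O2 and -0.78 at 20% O2 for ZFAT, -0.99 at 1% O2 and -0.79 at 20% O2 for ZFP41 and -0.47 at 1% O2 and -0.23 at 20% O2 for GLI4.

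All 4 tested genes placed in the group named RNA were lower in shCHD4 cells, 3 of them 2-fold or more, with medians of -1.51 at 1% O2 and -1.50 at 20% O2. KHDRBS3, a splicing regulator of the STAR family, had 46.8 and 48.8 at 1% O2 and 42 and 39.9 at 20% O2 in shCHD4 cells, against 83 and 82.3 at 1% O2 and 66.8 and 67 at 20% O2 in shSC cells. The labels did not overlap at either O2 level (log2 difference -0.78 at 1% O2 and -0.70 at 20% O2). PVT1 averaged 7.55 ± 0.475 in shCHD4 and 20.8 ± 0.909 in shSC cells at 1% O2 (SD, n = 2 each; log2 difference -1.40 at 1% O2 and -1.35 at 20% O2). TRMT12, an enzyme that makes the modified base wybutosine in phenylalanine tRNA, differed by -1.63 at 1% O2 and -1.65 at 20% O2, and TATDN1, a TatD-type nuclease, by -1.74 at 1% O2 and -1.68 at 20% O2. EIF2C2 codes for the small RNA binding protein Argonaute and is listed by RefSeq as a synonym of AGO2, which the table holds between TRAPPC9 and PTK2. AGO2 had 35.9 and 34.3 at 1% O2 and 33.7 and 36.1 at 20% O2 in shCHD4 cells, against 134 and 115 at 1% O2 and 113 and 112 at 20% O2 in shSC cells (log2 difference -1.81 at 1% O2 and -1.68 at 20% O2) and is counted among the other genes of the region.

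All 7 tested surface, secreted and signalling genes, LY6E and LY6K among them, were lower in shCHD4 cells, with medians of -0.99 at 1% O2 and -0.88 at 20% O2. ST3GAL1, which adds sialic acid to O-linked sugars, had 42 and 41.1 at 1% O2 and 33.8 and 36.5 at 20% O2 in shCHD4 cells, against 202 and 194 at 1% O2 and 121 and 114 at 20% O2 in shSC cells. The shCHD4 values lay below all shSC values, and within each label those at 1% O2 lay above those at 20% O2 (log2 difference between labels -2.24 at 1% O2 and -1.73 at 20% O2). TSNARE1, a SNARE domain protein, differed by -0.80 at 1% O2 and -0.88 at 20% O2, SLC45A4, a solute carrier, by -0.63 at 1% O2 and -0.67 at 20% O2, and the phosphatase gene PTP4A3 by -0.66 at 1% O2 and -0.53 at 20% O2. ARC, an immediate early gene of neurons, stood near the lower limit of testing with at most 58 reads in a library, and differed by -0.99 at 1% O2 and -0.27 at 20% O2. WISP1, a secreted matrix protein of the CCN family, had 10 reads over all libraries, none of them in the 4 shCHD4 libraries, and BAI1, an adhesion receptor, had 1. Of the 3 genes in no group, FAM91A1, which helps capture vesicles at the Golgi, had 178 and 184 at 1% O2 and 175 and 182 at 20% O2 in shCHD4 cells, against 275 and 260.3 at 1% O2 and 239.99 and 275 at 20% O2 in shSC cells (log2 difference -0.56 at 1% O2 and -0.52 at 20% O2), and WDR67 and FAM84B are given above.

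The label difference varied along the region. In the stretch of 13 tested members from ZHX2 to TRIB1 the median was -1.18 at 1% O2 and -1.44 at 20% O2, and in the 7 from FAM84B to ST3GAL1 it was -1.40 and -1.35. In the 7 from ZFAT to PTP4A3 it was -0.63 and -0.53, with none of these 7 2-fold lower. AGO2, the current name of the listed EIF2C2, lies in that stretch and was more than 2-fold lower, but is not among the 7 as it was not found by the listed symbol. In the 7 from TSNARE1 to GLI4 it was -0.99 and -0.79. The 7 consecutive members from TRMT12 to TRIB1 all lay between -2.49 and -1.04 by the mean of both O2 levels. Other neighbours differed widely. FBXO32 at -3.42 stood between ATAD2 at -0.13 and FAM91A1 at -0.54, and LY6K at -2.99 followed JRK at 0.28. The tested member after LY6K, LY6E, was low too, at -3.92.

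**Figure D2:**
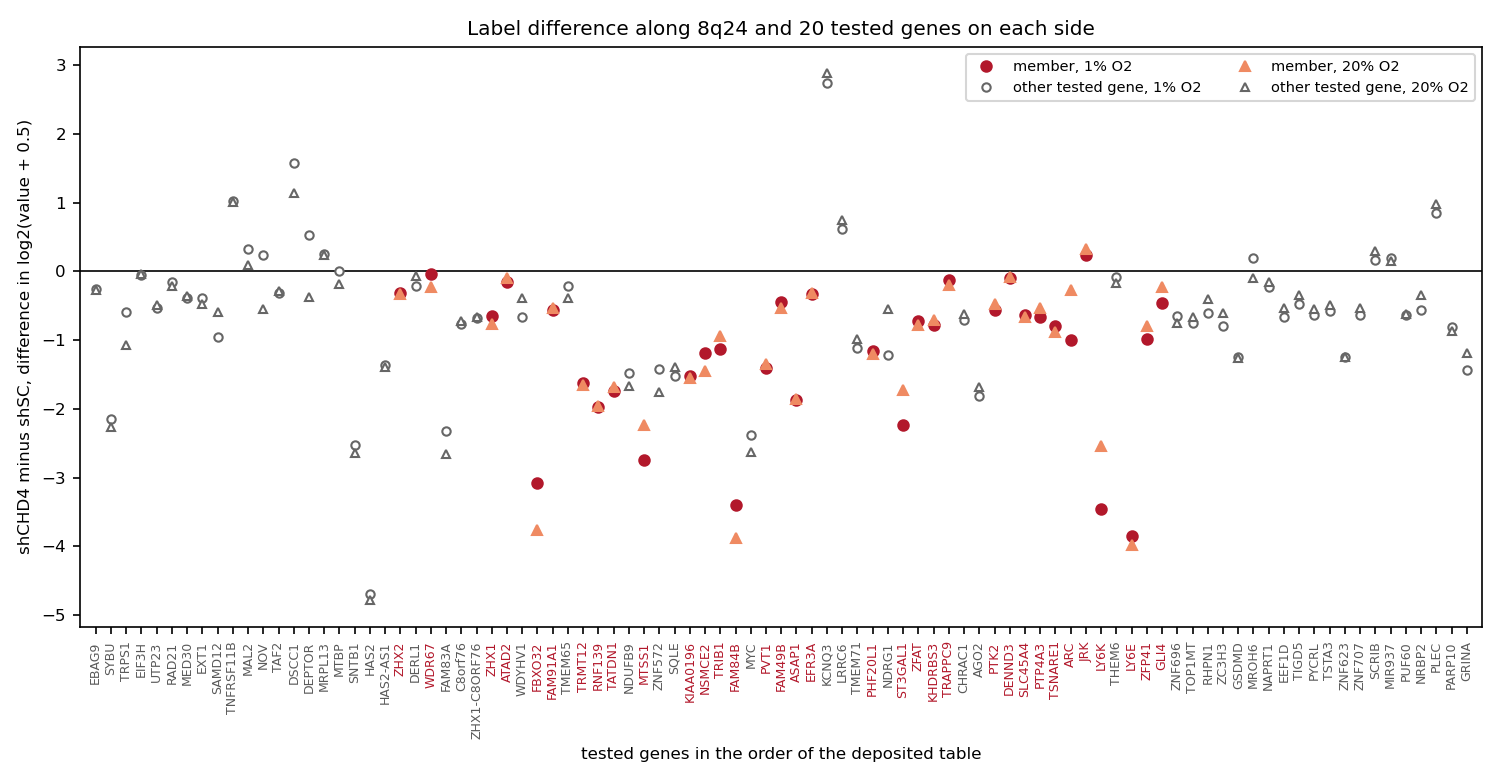
Difference in log2(value + 0.5) between shCHD4 and shSC (vertical) for each tested gene in table order, with circles for 1% and triangles for 20% O2. Members (filled) and the genes between them (open) mostly lie below 0, with KCNQ3 at 2.74 and 2.88 far above.

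The 17 tested genes that lie between the members but were not found by a listed symbol had medians of -0.76 at 1% O2 and -0.66 at 20% O2, with 15 of 17 below 0 at each level. They include AGO2, the current name of the listed EIF2C2. Exons of DERL1, NDUFB9 and ZHX1-C8ORF76, also among them, overlap those of members, so not all 17 are separate from the list. KCNQ3, a potassium channel gene, and LRRC6, needed to assemble motile cilia, were the 2 above 0. MYC had 126 and 123 at 1% O2 and 115 and 115 at 20% O2 in shCHD4 cells, against 652 and 655 at 1% O2 and 729 and 704 at 20% O2 in shSC cells, with label differences of -2.39 at 1% O2 and -2.63 at 20% O2 on the log2 scale, and by limma it fell at 1% O2 in shSC cells (log2 change -0.13, adjusted p = 0.0172). In shCHD4 cells the O2 difference of MYC was 0.11 (adjusted p = 0.0511), and the difference between labels passed the interaction test (0.25, adjusted p = 0.0191). Whether these MYC calls hold with a library left out or in other settings is not given here. NDRG1 had 631 and 640.4 at 1% O2 and 68.3 and 65.6 at 20% O2 in shCHD4 cells, against 1449 and 1491 at 1% O2 and 97.2 and 98.2 at 20% O2 in shSC cells, and its label difference was -1.21 at 1% O2 and -0.54 at 20% O2. The 20 tested genes after GLI4 had medians of -0.63 at 1% O2 and -0.53 at 20% O2. The 20 before ZHX2 had -0.29 and -0.37, the 193 on the rest of the long arm -0.071 and -0.13, and the 149 on the short arm -0.33 and -0.28. The region was thus lower than the rest of its arm, as it was chosen to be, and the difference between these medians was not tested.

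**Figure D3:**
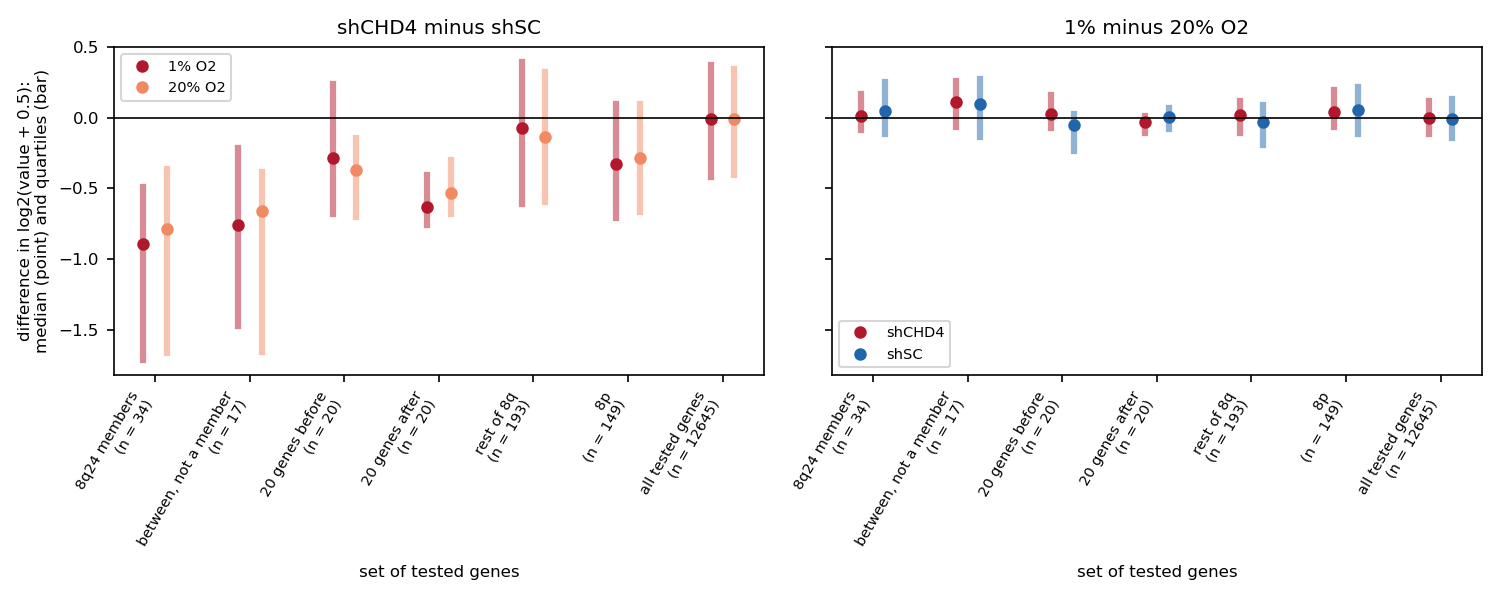
Median (point) and quartiles (bar) of the difference in log2(value + 0.5) for shCHD4 minus shSC (left) and for 1% minus 20% O2 (right), over 7 sets of tested genes. The members sit at -0.89 and -0.79 on the left and at 0.015 and 0.049 on the right.

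The label differences at 1% and 20% O2 come from different libraries and followed each other over the members, with Pearson's r = 0.963 over 34 genes, beside 0.969 over all 12645. Genes are not independent replicates, and the libraries of a label may share a culture. The O2 differences under shCHD4 and shSC, which share no library either, had r = 0.31 over the members and 0.706 over all genes. Spearman's rho was 0.453 and 0.613. The sign was the same in 26 of 34 members and in 9200 of 12645 genes, so nothing particular to the members is read from it. The label difference was larger in size than the O2 difference for 30 of 34 members, 88.2%, and for 80.5% of all genes. The median size was 0.794 for the label and 0.143 for O2 over the members, and 0.381 and 0.130 over all genes, on the log2 scale. The members were chosen for their label difference, so its size is not a separate result.

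The members' response to oxygen was small and went both ways. At 1% against 20% O2 in shCHD4 cells 8 of the 34 rose and 3 fell (limma, Benjamini-Hochberg adjusted over all genes), while 12.3% and 10.7% of all tested genes rose and fell. In shSC cells 9 rose and 5 fell, with 17.4% and 17.9% of all genes. The changed members were 32.4% under shCHD4 and 41.2% under shSC, beside 23% and 35.2% of all genes, and nothing particular to the region is read from these shares. The median O2 difference was 0.015 under shCHD4 and 0.049 under shSC, and -0.0037 and -0.011 over all genes. Among the genes between the members NDRG1 rose by 3.24 and 3.90 and FAM83A by 1.74 and 1.40 on the log2 scale. No member changed 2-fold under either label. Such changes were rare over all 12645 tested genes, with 63 higher and 1 lower under shCHD4 and 106 higher and 13 lower under shSC. Nothing particular to the members is read from their absence. The counts moved with single libraries. The 8 that rose under shCHD4 numbered 4 once replicate 1 of shCHD4 at 1% O2 was left out, 5 once replicate 2 of that group was left out, and 3 once replicate 1 of shCHD4 at 20% O2 was. The 3 that fell numbered 1 without any 1 of the 4 shCHD4 libraries. The 5 that fell under shSC numbered 3 without replicate 2 of shSC at 1% O2 and 2 without replicate 2 of shSC at 20% O2.

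**Figure D4:**
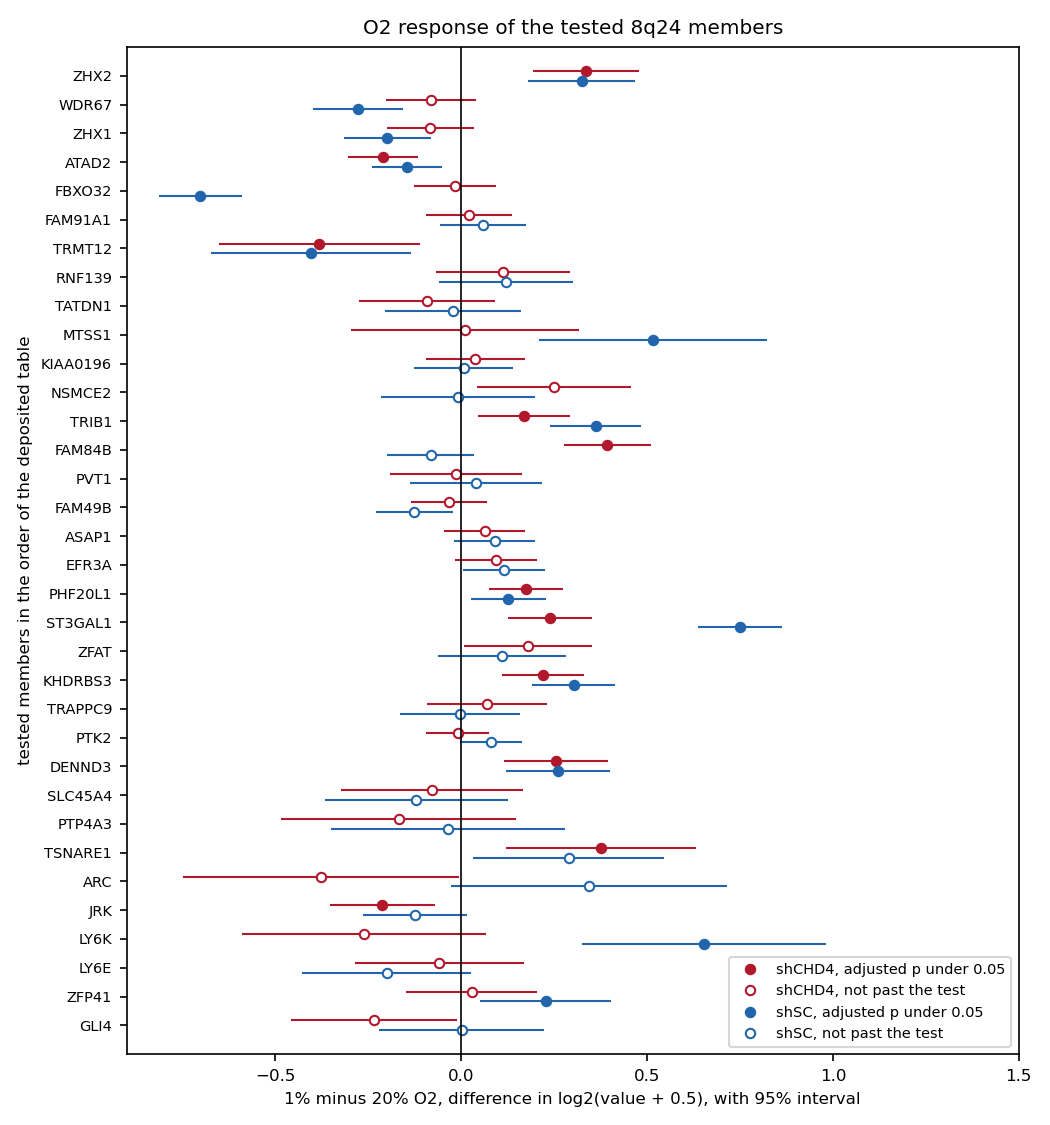
Difference in log2(value + 0.5) between 1% and 20% O2 (horizontal) with its 95% interval for each tested member in table order, shCHD4 above shSC. Filled points passed the test, and the outermost are FBXO32 at -0.70 and ST3GAL1 at 0.75, both under shSC.

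ST3GAL1, KHDRBS3, DENND3, ZHX2, TRIB1 and PHF20L1 rose at 1% O2 under both labels. ST3GAL1 rose by 0.24 on the log2 scale in shCHD4 cells (SE 0.054, adjusted p = 0.00400) and by 0.75 in shSC cells (SE 0.054, adjusted p = 6.40e-09). The call under shCHD4 ended without shCHD4 20% O2 replicate 1 (adjusted p = 0.0794). ZHX2 rose by 0.34 under shCHD4 and 0.32 under shSC (adjusted p = 0.00183 and 0.00129). TRIB1 rose by 0.17 under shCHD4 and 0.36 under shSC (adjusted p = 0.0463 and 1.22e-04). KHDRBS3 rose by 0.22 under shCHD4 and 0.30 under shSC (adjusted p = 0.00614 and 2.47e-04), and DENND3 by 0.26 under shCHD4 and 0.26 under shSC (adjusted p = 0.0104 and 0.00541). PHF20L1 rose by 0.17 under shCHD4 and 0.13 under shSC (adjusted p = 0.0139 and 0.0462).

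Several of these calls depend on single libraries. TRIB1 under shCHD4 missed the threshold without any 1 of the 4 shCHD4 libraries (adjusted p = 0.111 to 0.254) with the replicate number in the fit (adjusted p = 0.0589), with no filter (adjusted p = 0.0581), with no variance trend (adjusted p = 0.0663), in edgeR (adjusted p = 0.0536) and in DESeq2 (adjusted p = 0.157). PHF20L1 under shSC missed it in 12 of 18 alternatives (adjusted p up to 0.197). PHF20L1 and DENND3 under shCHD4 missed it without shCHD4 1% O2 replicate 1 (adjusted p = 0.203 and 0.195) or without shCHD4 20% O2 replicate 1 (adjusted p = 0.116 and 0.0638). PHF20L1 under shCHD4 also missed it with no variance trend (adjusted p = 0.073). KHDRBS3 under shCHD4 missed it without shCHD4 1% O2 replicate 2 (adjusted p = 0.0865) or without shCHD4 20% O2 replicate 2 (adjusted p = 0.0679). ZHX2 kept its call under every alternative run.

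FAM84B and TSNARE1 rose and JRK fell at 1% O2 past the threshold in shCHD4 cells and not in shSC cells. FAM84B rose by 0.39 (SE 0.0554, adjusted p = 6.00e-05), against a difference of -0.083 in shSC cells (adjusted p = 0.263). TSNARE1 rose by 0.38 (adjusted p = 0.0332), against 0.29 in shSC cells (adjusted p = 0.0736). JRK had a log2 change of -0.21 (adjusted p = 0.0293), against -0.12 in shSC cells (adjusted p = 0.161). For TSNARE1 and JRK the difference between labels did not pass the interaction test (adjusted p = 0.84 and 0.684). The call of JRK ended without any 1 of the 4 shCHD4 libraries (adjusted p = 0.05002 to 0.212), and that of TSNARE1 without 3 of them (adjusted p = 0.077 to 0.234), shCHD4 20% O2 replicate 2 being the exception. The JRK call also ended with no filter, with no variance trend and in DESeq2 (adjusted p = 0.0555, 0.0505 and 0.0893), and that of TSNARE1 with no filter, with quantile normalization and in DESeq2 (adjusted p = 0.118, 0.111 and 0.167).

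ATAD2 and TRMT12 fell under both labels, ATAD2 with log2 changes of -0.21 under shCHD4 and -0.15 under shSC (adjusted p = 0.00278 and 0.0175) and TRMT12 with -0.38 under shCHD4 and -0.41 under shSC (adjusted p = 0.0393 and 0.0200). TRMT12 rested on few reads, 1104 over the 8 libraries, and its calls ended without any 1 shCHD4 library under shCHD4 (adjusted p = 0.0654 to 0.238) and in DESeq2 under both (adjusted p = 0.19 and 0.0915). The shCHD4 call was also lost with no filter, with no variance trend and in edgeR (adjusted p = 0.129, 0.0536 and 0.0862). Under shSC its call was lost with no filter (adjusted p = 0.0802), and without replicate 2 of shSC at 1% O2 (adjusted p = 0.205) or either shSC 20% O2 library (adjusted p = 0.0536 and 0.0900). For ATAD2 under shSC the call was lost without replicate 1 of shSC at 1% O2 (adjusted p = 0.185) or shSC 20% O2 replicate 2 (adjusted p = 0.131), with no filter (adjusted p = 0.0559) and with no variance trend (adjusted p = 0.0915).

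In shSC cells FBXO32, WDR67 and ZHX1 fell and LY6K, MTSS1 and ZFP41 rose, without passing the test in shCHD4 cells. FBXO32 had a log2 change of -0.70 in shSC cells (SE 0.0527, adjusted p = 1.14e-08), against -0.017 in shCHD4 cells (adjusted p = 0.848). LY6K rose by 0.65 in shSC cells (SE 0.157, adjusted p = 0.00345), and MTSS1 by 0.52 (SE 0.146, adjusted p = 0.0103). WDR67 had -0.28 (adjusted p = 0.0011), ZHX1 -0.20 (adjusted p = 0.00948) and ZFP41 0.23 (adjusted p = 0.0434). For ZHX1 the call was lost without replicate 2 of shSC at 1% O2 (adjusted p = 0.112) or shSC 20% O2 replicate 2 (adjusted p = 0.0683). For MTSS1 the call was lost without replicate 2 of shSC at 1% O2 (adjusted p = 0.0729) or shSC 20% O2 replicate 1 (adjusted p = 0.0856), and for ZFP41 without any 1 of the 4 shSC libraries (adjusted p = 0.0671 to 0.221), with no filter, with no variance trend and in DESeq2 (adjusted p = 0.12, 0.101 and 0.0721). In shCHD4 cells the O2 difference was -0.082 for WDR67, -0.083 for ZHX1, 0.0095 for MTSS1 and 0.028 for ZFP41. A difference between the labels was not shown for these 4, as the interaction test was not passed (adjusted p = 0.198, 0.468, 0.189 and 0.399). MTSS1 passed the filter on a mean of 1 only through the shSC libraries. Its shCHD4 group means were 0.679 at 1% O2 and 0.677 at 20% O2, near the pseudocount. Neither its O2 difference in shCHD4 cells nor its interaction value is therefore read as a response. The remaining 17 tested members passed neither O2 test, among them PVT1 (-0.013 under shCHD4 and 0.04 under shSC), PTK2 (-0.0096 under shCHD4 and 0.08 under shSC) and ASAP1 (0.064 under shCHD4 and 0.09 under shSC).

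The test of a difference in O2 response between the labels was passed by 4 of 34 members, 11.8%, 2 in each direction and 1 of them, LY6K, on too few reads to be read, while 2.21% of all genes had a higher and 2.14% a lower response under shCHD4 (4.36% in either direction). The value tested is the O2 difference under shCHD4 minus that under shSC. It equals the label difference at 1% O2 minus that at 20% O2. As label differences were used to choose the members, nothing about the region is read from the share past this test. FBXO32 had the largest positive difference, 0.69 (95% interval 0.53 to 0.84, adjusted p = 1.89e-05). FAM84B followed with 0.48 (95% interval 0.31 to 0.64, adjusted p = 0.00146, and 0.0514 without a variance trend). ST3GAL1 had -0.51 (95% interval -0.67 to -0.35, adjusted p = 6.12e-04), its rise being smaller under shCHD4. LY6K had -0.92 (95% interval -1.38 to -0.45, adjusted p = 0.023). LY6K passed the filter on a mean of 1 only through the shSC libraries, with group means of 0.158 at 1% O2 and 0.286 at 20% O2 in shCHD4 cells, under the pseudocount, so no difference in response is read from its call. The value rests on the few shCHD4 reads given above, its size changed to -1.32 with a pseudocount of 0.1, and its call ended in 7 alternatives, edgeR's quasi-likelihood test on the recovered reads among them (adjusted p = 0.117). Of those, 5 leave out 1 library (adjusted p = 0.0634 to 0.104), namely shCHD4 1% O2 replicate 1, shCHD4 20% O2 replicate 2, either shSC 1% O2 library or shSC 20% O2 replicate 2. All 4 members past the test are among the 6 with the lowest label ratios. Those ratios come from the same libraries as the value tested, so no link is read from this. ARC, with at most 58 reads in a library, had the widest interval of the members, -1.25 to -0.19 around -0.72, and did not pass the test (adjusted p = 0.117). ARC too passed the filter only through the shSC libraries, with shCHD4 group means of 0.645 at 1% O2 and 0.987 at 20% O2. No difference in response is read from its value.

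**Figure D5:**
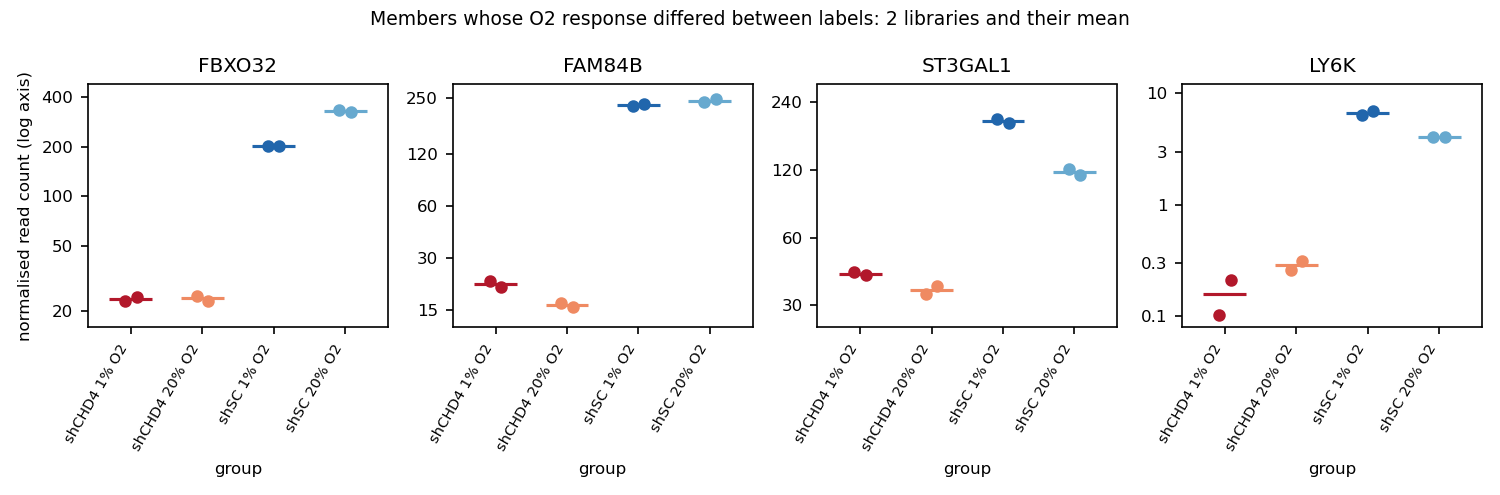
Normalised read count (vertical, log axis) of FBXO32, FAM84B, ST3GAL1 and LY6K in 4 groups, with 1 point per library and a bar at the group mean. FBXO32 is lower at 1% than at 20% O2 in shSC but not in shCHD4 cells, and the LY6K values of shCHD4 cells are far below those of shSC cells.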

How the data were processed

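Poly(A) RNA was sequenced from 8 MDA-MB-231 libraries, 2 in each of 4 groups formed from the treatment and knockdown labels, and the replicate number was taken from the titles. Per the submitters' processing notes, the tools were bcl2fastq 2.17, FastQC 0.11.2, TopHat, Picard 1.127, featureCounts and edgeR with build hg19 of the human genome. Which annotation and which strand setting served is not stated in those notes. The authors deposited 1 table of gene values with no raw counts. Its file name speaks of FPKM, but the deposited values are a signal of counts divided by a size factor per library, with no division by length, since each library's values were whole multiples of 1 read (100% within a tolerance of 0.01).

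Genes with a mean of at least 1 were tested on log2(value + 0.5) with limma 3.58.1 in R 4.3.3, with a variance trend, 1 fit over the 4 groups and Benjamini-Hochberg adjustment over all 12645 genes at 0.05. An adjusted p quoted with no tool is from limma. The pseudocount understates changes of genes with low values. Comparisons were 1% against 20% O2 under each label, the interaction, and shCHD4 against shSC at each O2 level, the last without a test for the members. With 2 libraries on each side, p by exact permutation could at best reach 0.33, so no such test was used. The fit was also run on simulated data, with few genes changed in a single group and libraries drawn independently. That setting differs from these data, so it cannot say whether the calls given here are right. Alternatives were edgeR 4.0.16 and DESeq2 1.42.0 on the recovered reads, other pseudocounts, filters and scalings, the replicate number as a block, and leaving out each library. The members, groups of genes and comparisons were chosen with earlier results of these data known.

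Values in every library are given for members past the test with an O2 change of at least 0.5 (log2), those past the interaction test, the 5 lowest and the 5 highest by mean label difference, and in each group of genes the 1 with the highest mean value, with MYC, NDRG1, CHD4 and CA9 added. AGO2 was added after its values were seen, as were HAS2, SNTB1, KCNQ3, LRRC6 and FAM83A. Gene order follows the deposited table, which follows RefSeq order across the region (Spearman's rho = 1.00 over 79 rows with a RefSeq match, rounded).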

Additional observations from a re-analysis of the deposited data

Results flagged for a closer look

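For 4 members the test of the difference in O2 response between the labels was passed (limma, interaction term), for LY6K on few reads. FBXO32 had an O2 difference under shCHD4 minus that under shSC of 0.69 on the log2 scale, its adjusted p over the alternatives ranging from 7.45e-11 to 0.017. FAM84B had 0.48, with 1.36e-04 to 0.0514. ST3GAL1 had -0.51, with 6.92e-06 to 0.0441. LY6K, which passed the filter on low values only through the shSC libraries and had 3 and 6 reads at 1% O2 and 7 and 9 at 20% O2 in shCHD4 cells, had -0.92, with 0.0146 to 0.117, and no difference in response is read from it.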

How the results depend on the processing

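No member median or called O2 difference of a member reversed under any alternative run. Members that fell under shCHD4 numbered 1 in place of 3 with no filter, with no variance trend and in DESeq2, and members that fell under shSC 3 in place of 5 with no filter. Interaction calls numbered 1 in place of 2 higher with no variance trend, and 1 in place of 2 lower with no filter, a mean of at least 5, edgeR or DESeq2. The member median between labels at 1% O2 was -0.77 with a pseudocount of 1 and -0.79 with a mean of at least 5. The median of the other genes of the region at 1% O2 was -0.94 with that filter, and that of the 20 genes after GLI4 at 20% O2 was -0.45 with quantile normalization. The filter at a mean of 5 left out the members LY6K, MTSS1, PTP4A3 and ARC. Among the other genes of the region it left out ZNF572 and the genes above 0, KCNQ3 and LRRC6. Medians with that filter are thus over fewer genes. LY6K had no adjusted p for the interaction in DESeq2. The cause of the other changes was not tested.

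Leaving out 1 library gave 3 to 8 members higher and 1 to 3 lower for O2 under shCHD4, 6 to 10 and 2 to 5 under shSC, and 2 to 2 and 1 to 2 for the interaction. The member median was -0.93 to -0.80 at 1% O2 and -0.87 to -0.77 at 20% O2, and that of the 20 genes before ZHX2 at 20% O2 was -0.44 to -0.30. A lone library left in a group was assumed to vary like the other groups. Over all genes, 1351 fell under shCHD4, against 850 with no filter, 772 with no variance trend, 876 in DESeq2 and as few as 512 with 1 library left out, and 1552 rose, against as few as 812. Under shSC 2259 fell, against 1387 without shSC 1% O2 replicate 1. Interaction calls, 280 higher and 271 lower, numbered 76 and 79 with no filter, 91 and 64 with no variance trend, 179 and 205 in DESeq2, and 129 to 568 and 113 to 426 with 1 library left out.

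Same-numbered libraries did not deviate together (r from -0.12 to 0.12 over genes), so the numbers are not taken as pairs. With the replicate block, which ended the calls of TRIB1 under shCHD4 and PHF20L1 under shSC (adjusted p = 0.0589 and 0.0589), 7 members rose and 3 fell under shCHD4, 8 and 5 under shSC, and the interaction calls were 2 and 2.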

Other observations

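Genes just outside the region also differed between the labels. Of the 20 tested genes before ZHX2, HAS2, which makes the matrix sugar hyaluronan, had log2 label differences of -4.70 at 1% O2 and -4.78 at 20% O2, and SNTB1, a syntrophin of the dystrophin complex, had -2.52 and -2.64. Both were named after their values were seen. Over the 431 tested genes of chromosome 8 the median label difference was -0.31 at 1% O2 and -0.31 at 20% O2, the lowest of the autosomes and X, and that of the 229 genes of chromosome 13 was the highest, 0.74 at 1% O2 and 0.69 at 20% O2. The 431 include the members, which were chosen for their label difference, so the rank of chromosome 8 is not a separate result.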
